A study of Mus musculus with 4 samples.

Results

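The genes followed here encode the machinery that brings proteins into mitochondria, folds them there and removes the damaged ones. The 46 members were chosen by symbol from the 32285 genes of the files: every gene named Tomm or Timm followed by a number, and 20 named chaperones, peptidases, proteases and membrane-organising proteins. No measured value entered that rule, but it was set with earlier results of these data known. The study sorted CD31+ cells out of the AGM (aorta-gonad-mesonephros) of C57BL/6J mouse embryos at stage E11.5, the tissue in which blood stem cells first emerge, and asked which transcripts accompany mitochondrial activity in them. The MMPlow group holds the sorted cells with a weak signal of TMRM, a fluorescent dye drawn into mitochondria by the potential across their inner membrane, and the MMPhigh group holds those with a strong one. Each group has 2 single-cell libraries. The labels name no transgene, deletion or drug in either group, and they do not say how many embryos went into a library or whether the libraries of a group came from separate sorts. The p-values below therefore measure the spread between these libraries, which may be technical.

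Most mitochondrial proteins are made in the cytosol and enter through the TOM complex of the outer membrane, where receptors such as Tomm20, Tomm22 and Tomm70a recognise the precursor and Tomm40 forms the channel. The SAM complex inserts barrel-shaped proteins into the outer membrane, small TIM chaperones escort hydrophobic proteins across the space between the membranes, and the TIM22 and TIM23 translocases serve the inner membrane. Passage through TIM23 needs the membrane potential, the property that TMRM reads, and the import motor around Hspa9 pulls the chain into the matrix. There the processing peptidase removes the targeting sequence, the chaperonin of Hspd1 and Hspe1 folds the protein, and proteases such as Lonp1 and Clpp degrade what fails.

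Hspd1 and Hspe1, the subunits of the chaperonin, are read in opposite directions from one region of chromosome 1, and the RefSeq starts compared were 95 bases apart. The genes overlap there, so each start lies inside the other gene. A heat shock element was searched on both strands as GAA, TTC and GAA in a row with any 2 bases between neighbours. Ahead of Hspe1, 2 overlapping matches, 1 on each strand, lay in the stretch at chr1:55088050-55088079 of GRCm38.p6, printed on the plus strand. That stretch also lies inside the annotated Hspd1 gene, past the start of Hspd1. This and the sequences that follow are from RefSeq on that build. The stretch is shown with both matches in capitals because the pair responds to stress in many cells. The end of the capitals overlaps the letters CCGGAAG, which are searched for next.

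Hspe1: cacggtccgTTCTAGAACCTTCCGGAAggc

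Promoter windows of 250 bases before to 50 bases after the RefSeq start were matched for 40 of the 46 members. The core letters CCGGAAG bound by ETS factors, on either strand, were in 19 of them (47.5%), against 9.12% of 27025 windows of that length. Those windows were not matched to the members for base content or shared starts. In 7 members the core lay upstream of the annotated gene starts, with at least 60 bases there and no opposite-strand start within 300 bases. The next sequences show this core in capitals ahead of Tomm22 and Mtx2, which were higher over all MMPhigh cells, of Immt, which did not pass the test, and of Tomm70a, which was lower. They are stretches of 60 bases upstream of the annotated gene starts on the plus strand: Tomm22 at chr15:79670794-79670853, Mtx2 at chr2:74825743-74825802, Immt at chr6:71831174-71831233 and Tomm70a at chr16:57121607-57121666.

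Tomm22: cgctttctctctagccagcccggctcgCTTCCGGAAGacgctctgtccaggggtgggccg

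Mtx2: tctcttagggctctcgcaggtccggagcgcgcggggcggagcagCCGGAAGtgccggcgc

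Immt: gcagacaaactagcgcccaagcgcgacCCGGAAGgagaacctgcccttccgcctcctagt

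Tomm70a: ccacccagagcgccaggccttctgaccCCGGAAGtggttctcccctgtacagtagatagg

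In Tomm22 a match on the one strand overlapped a match on the other. The ETS core was thus found beside members that differed in either direction. The stretch ahead of Tomm40, the channel of the TOM complex, is shown for its 5 CCAAT boxes, in capitals, at chr7:19715439-19715679 on the minus strand. Gm38955, read from the opposite strand, starts 35 bases from the RefSeq start of Tomm40, and the 5 boxes lie past the start of Gm38955.

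Tomm40: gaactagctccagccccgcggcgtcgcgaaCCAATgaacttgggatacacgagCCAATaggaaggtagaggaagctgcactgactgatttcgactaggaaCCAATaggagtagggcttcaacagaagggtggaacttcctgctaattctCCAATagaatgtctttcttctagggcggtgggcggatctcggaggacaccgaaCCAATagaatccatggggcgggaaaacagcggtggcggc

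Over the members, the CCAAT box was about as frequent as elsewhere, in 37.5% of member windows and 37.9% of all windows. The NRF1 core, GCGCA and GCGC around any 1 base, was in 15% against 4.78%, the E-box CACGTG in 22.5% against 7.24%, and the SP1 box GGGCGG in 57.5% against 35.9%. TGCAAT, the core letters of CHOP and C/EBP factors, was in 10.0% against 8.52%. The heat shock element was in 2 member windows, those of Hspe1 and Timm9, and in 0.529% of all windows. Starts within 300 bases of another gene's start on the opposite strand were found for 12 members, including Timm8b beside Sdhd, a subunit of respiratory complex II. All letters were searched on both strands, and they describe the windows and not the binding of any factor.

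The libraries held 59928, 23715, 13939 and 4288 barcodes in the order MMPlow 1, MMPlow 2, MMPhigh 1 and MMPhigh 2, where the protocol aimed at up to 10000 cells per lane. After filtering, 15698, 18405, 4139 and 3277 cells remained, with median UMIs (unique molecular identifiers, the counted transcripts) of 3081.5, 3639, 3796 and 22937 per cell. Pairs of libraries shared 7 to 89 barcodes that passed the filter. Cells were clustered without the members, mitochondrially encoded genes, nuclear genes of the respiratory chain and cytosolic ribosomal protein genes. Clusters were named from marker lists, and "-like" marks a name that rests on markers alone. Endothelial-like cells were 49.2% and 47.4% of the MMPlow libraries and 0.362% and 0.427% of the MMPhigh libraries. Pecam1, which encodes the sorted CD31, stood at 275 and 262 CPM (UMIs of a gene per 1000000 UMIs of the summed cells) in MMPlow and at 25.1 and 23.2 in MMPhigh, so the MMPhigh libraries went against the CD31+ label at the RNA level. Neural or neural crest-like cells were 1.68% and 1.52% of the MMPlow libraries and 25.3% and 25.9% of the MMPhigh libraries, and clusters left without a name were 11.4% and 11.7% of the MMPlow libraries and 36.4% and 11.1% of the MMPhigh libraries.

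The members' summed share of UMIs was highest in erythroid-like cells, which stood above every other named class in every library. It was 0.917% and 1.12% in MMPlow and 1.24% and 1.28% in MMPhigh. The order below them differed between the groups. In both MMPlow libraries muscle progenitor-like cells came next, at 0.596% and 0.634% in MMPlow and 0.660% and 0.60% in MMPhigh. Their name is loose, since contractile genes such as Actc1 and Ttn led their clusters. Pax3, Pax7 and Myf5, also on the marker list, were not among the leading genes. Megakaryocyte-like cells took 0.551% and 0.628% in MMPlow and 0.673% and 0.742% in MMPhigh, germ cell-like cells 0.546% and 0.570% in MMPlow and 0.654% and 0.776% in MMPhigh, and granulocyte or mast-like cells 0.525% and 0.585% in MMPlow and 0.650% and 0.763% in MMPhigh. Macrophage-like cells took 0.561% and 0.617% in MMPlow and 0.497% and 0.522% in MMPhigh. Over the 4 libraries the means of the first 4 of these classes lay within 1 SD of each other, from 0.623% ± 0.0303 in muscle progenitor-like to 0.648% ± 0.0804 in megakaryocyte-like cells (mean ± SD, n = 4). Endothelial-like cells stood at 0.50% and 0.493% in MMPlow, mesenchymal-like cells at 0.509% ± 0.0151, and neural or neural crest-like cells were lowest at 0.405% ± 0.0292. These levels are a description, since the classes are clusters of the same cells.

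**Figure D1:**
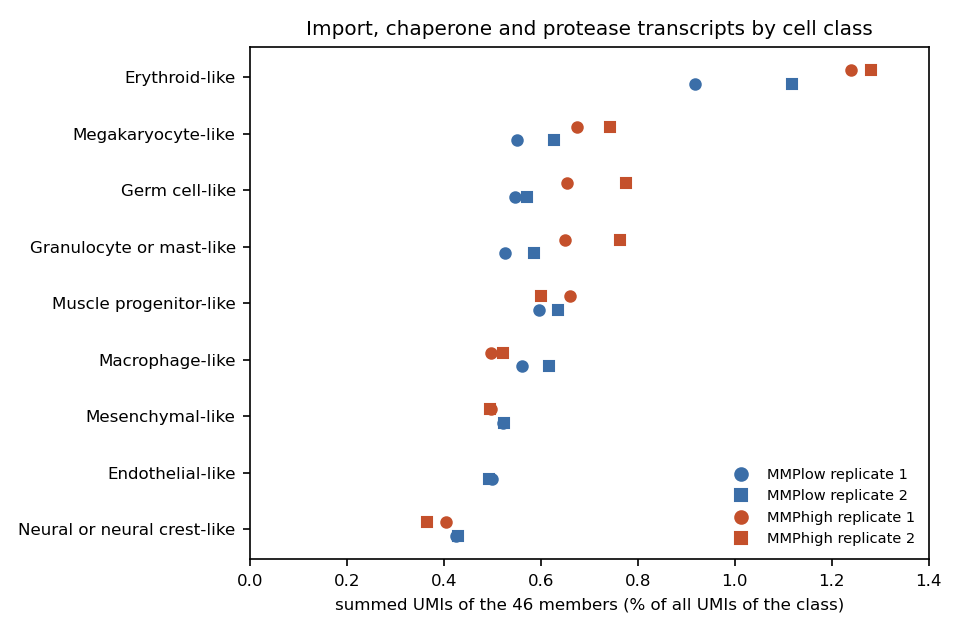
Summed UMIs of the 46 members as a percent of all UMIs of a class (x axis), for each cell class (y axis), with 1 point per library, blue for MMPlow and red for MMPhigh, circles for replicate 1 and squares for replicate 2; endothelial-like cells have MMPlow points only, because MMPhigh held 15 and 14 of them. Erythroid-like points lie between 0.917% and 1.28%, to the right of all others, and neural or neural crest-like points lie leftmost.

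Member by member, 34 of the 46 had their highest mean level in erythroid-like cells, and 27 had their lowest in neural or neural crest-like cells. No share of all genes is given for these counts. Mitochondrial ribosomal proteins, outside the members, took 0.849% and 1.03% in MMPlow and 1.21% and 1.19% in MMPhigh of erythroid-like UMIs. In neural or neural crest-like cells they took 0.555% and 0.566% in MMPlow and 0.539% and 0.474% in MMPhigh. Whether the order is particular to the members was not tested. Hspd1 stood at 2107 ± 331 CPM of the class's UMIs (mean ± SD, n = 4 libraries) in erythroid-like cells, 913 ± 117 in megakaryocyte-like cells and 397 ± 43.6 in neural or neural crest-like cells, a 5.31-fold range. Tomm5, a small subunit of the TOM complex, ran from 567 ± 114 to 110.2 ± 35.6 CPM between the same ends. Timm8a1, a small TIM chaperone, had the widest range of the members with a median over 10 CPM, 6.95-fold, from 308 ± 69.9 CPM in erythroid-like cells to 44.4 ± 14.1 in neural or neural crest-like cells. For all 3 genes the lowest erythroid-like library lay above the highest library of the next class, at 1641 against 1051 CPM for Hspd1.

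Other members were spread more evenly. Yme1l1, an inner-membrane protease, ranged from 83.2 ± 8.75 CPM in macrophage-like cells to 110.0 ± 15.3 in megakaryocyte-like cells. Clpx, the unfoldase that feeds Clpp, ranged from 42.4 ± 6.76 to 58.1 ± 3.40 CPM. Mtx2, a metaxin of the outer membrane, was highest in muscle progenitor-like cells at 111 ± 21.1 CPM, as were Timm8b at 208 ± 34.0 and Pmpcb at 64.3 ± 11.2, and the next class lay within that spread for each of them. Tomm34, a cytosolic cochaperone, was highest in granulocyte or mast-like cells at 44.5 ± 12.8 CPM, next to germ cell-like cells at 44.3 ± 17.6. Timm8a2, Tomm20l and the antisense transcript Tomm6os stayed under 1 CPM in every class mean. Timm8a2 passed the filter on low counts in no comparison, Tomm6os only over all cells, and Tomm20l only over all cells and in endothelial-like cells. Germ cell-like cells also left out Timm29 and Tomm40l. Tomm6os overlaps Tomm6 on the opposite strand, and whether the counting used the strand is not given in the sources used here, so reads of this pair may not be separable. Several members, among them Hspe1 and Tomm20, have processed pseudogenes, and how reads shared with those copies were counted was not tested.

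Over all retained cells, 15 members were higher and 3 lower in MMPhigh of 45 tested, by edgeR's quasi-likelihood test on UMIs summed per library at an adjusted p under 0.05. By that rule 27.3% of all genes were higher and 26.5% lower, so the members' share of higher calls was near the background and their share of lower calls was below it. The median log2 fold was 0.20 for the members and 0.01 for all genes. The summed members took 0.556% and 0.595% in MMPlow and 0.645% and 0.654% in MMPhigh of all UMIs. These sums mix classes of cells, and from the sums alone fewer cells of a type and less RNA per cell cannot be told apart. Erythroid-like cells were 8.22% and 6.81% of the MMPlow cells and 3.33% and 9.70% of the MMPhigh cells. They held 55333 of 342512 and 104976 of 516774 member UMIs in MMPlow. In MMPhigh they held 61769 of 252226 and 239997 of 632179. The part of these erythroid-like UMIs in the differences over all cells was not tested.

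**Figure D2:**
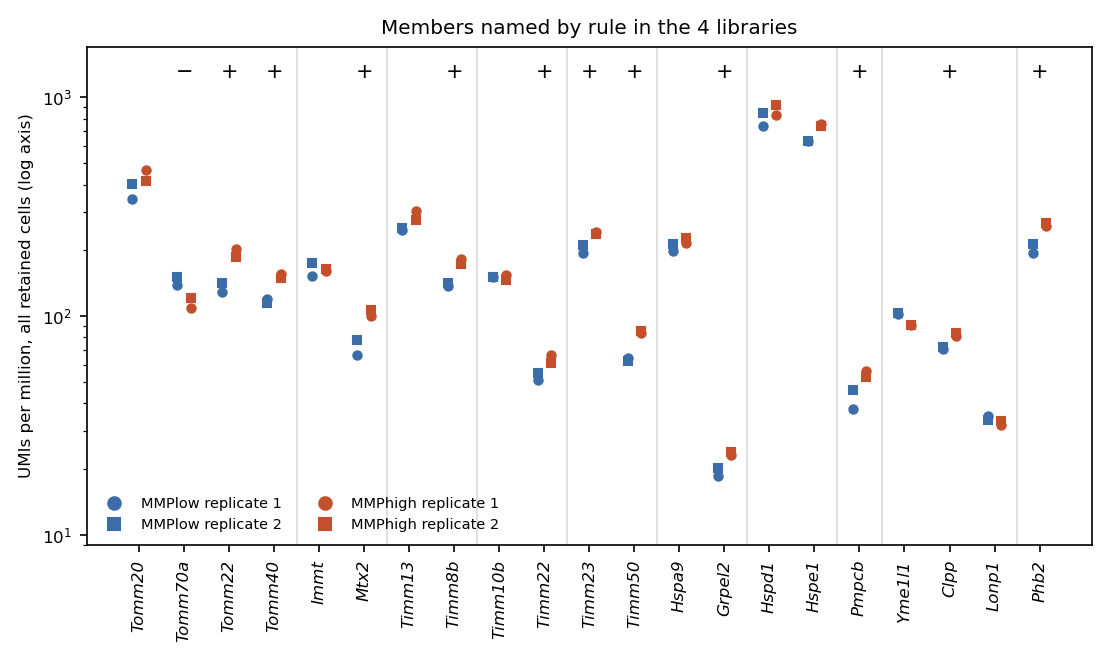
CPM over all retained cells on a log axis for the members named by rule, ordered by role from the TOM complex on the left to the prohibitins on the right, with 1 point per library as in the legend. A plus or minus above a gene marks an edgeR adjusted p under 0.05 for MMPhigh higher or lower: Tomm22 moves from 129 and 143 to 203 and 186, and Tomm70a from 139 and 152 to 109 and 122.

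In the TOM complex, 3 of 9 members tested rose and 2 fell. Tomm22, the central receptor, stood at 129 and 143 CPM in MMPlow and 203 and 186 in MMPhigh. The groups did not overlap (log2 fold 0.55 ± 0.10 SE, edgeR adjusted p = 0.00234). Tomm40, the channel, stood at 120.1 and 115 against 156 and 149.7 CPM, also without overlap (log2 fold 0.42 ± 0.08, adjusted p = 0.00387). Tomm70a, the receptor for carrier proteins, went the other way, from 139 and 152 to 109 and 122 CPM (log2 fold -0.30 ± 0.09, adjusted p = 0.0262). Tomm20, the receptor for targeting sequences, read 343 and 401 against 466 and 416 CPM, without overlap, but did not pass (log2 fold 0.28 ± 0.13, adjusted p = 0.0886). Tomm7, a small stabilising subunit, read 173 and 307 CPM in the MMPhigh libraries, on either side of the 256 and 227 of MMPlow. The other member that fell was Tomm20l, a barely detected paralogue of Tomm20, from 0.893 and 0.633 to 0.230 and 0.145 CPM.

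Among the sorting and cristae-organising proteins, 1 of 4 rose. Mtx2 stood at 66.5 and 77.6 CPM in MMPlow and 100.4 and 107 in MMPhigh, with no overlap (log2 fold 0.56 ± 0.10, adjusted p = 0.00194), and this was the largest positive fold of the members tested. Immt, which holds the cristae junctions, read 153 and 175 against 162 and 165 CPM, with overlap. Of the small TIM chaperones, 1 of 5 tested rose, Timm8b, from 138 and 142 to 183 and 173 CPM (log2 fold 0.38 ± 0.09, adjusted p = 0.00761). Timm13 read 248 and 253 against 303 and 275 CPM, without overlap, and did not pass (adjusted p = 0.0761).

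In TIM23, the main translocase of the inner membrane, 4 of 5 members rose. Timm50, its receptor, stood at 64.1 and 62.2 CPM in MMPlow and 83.9 and 85.6 in MMPhigh (log2 fold 0.46 ± 0.08, adjusted p = 0.00135), and Timm23, the channel, at 194 and 211 against 242 and 237 (log2 fold 0.28 ± 0.10, adjusted p = 0.0404). The channel-forming Timm17a and Timm17b rose with log2 folds of 0.39 and 0.32. In TIM22, 1 of 3 rose, the channel Timm22 itself, from 51.1 and 55.0 to 66.3 and 61.1 CPM (adjusted p = 0.0228). Its partner Timm10b read 152 and 151 against 155 and 146 CPM, with overlap.

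Behind the channel the members differed among themselves. In the import motor, 1 of 6 members rose and 1 fell. Grpel2, a nucleotide exchange factor, rose from 18.6 and 20.2 to 23.2 and 23.8 CPM (log2 fold 0.31 ± 0.09, adjusted p = 0.0202), and Timm44, which tethers Hspa9 to the channel, fell from 89.2 and 68.2 to 57.5 and 58.9 CPM (log2 fold -0.40 ± 0.12, adjusted p = 0.0240). Hspa9, the chaperone that drives the motor, read 199 and 214 against 217 and 229 CPM and did not pass (adjusted p = 0.233). Neither subunit of the chaperonin passed. Hspd1 read 742 and 846 CPM in MMPlow and 829 and 927 in MMPhigh, with overlap, and Hspe1 read 631 and 635 against 759 and 740.1 CPM, without overlap (adjusted p = 0.0529).

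Of the processing peptidase, the catalytic subunit Pmpcb rose from 37.7 and 46.3 to 56.4 and 53.0 CPM (log2 fold 0.41 ± 0.11, adjusted p = 0.0166), while Pmpca read 43.5 and 42.9 against 44.6 and 45.5 and did not pass. Both prohibitins, ring-forming scaffolds of the inner membrane, rose, with Phb2 at 195 and 213 against 257 and 266 CPM (log2 fold 0.39 ± 0.10, adjusted p = 0.00924). Of the 5 proteases, 1 rose, Clpp, the proteolytic chamber of the matrix, from 71.0 and 72.6 to 81.0 and 83.5 CPM (adjusted p = 0.0349). Lonp1, another matrix protease, read 35.0 and 33.7 against 31.9 and 33.1 CPM, and Yme1l1 read 103 and 104 against 90.8 and 90.9. Both lay lower in MMPhigh without overlap, and neither passed. Every called member named over all cells had groups that did not overlap.

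On plain CPM, 27 of the 46 members had both MMPhigh libraries above both MMPlow libraries and 8 had both below. Over all genes tested these shares were 37.4% and 40.8%. The calls depended on which cells were summed. With at least 5000 UMIs per cell, 1 member was higher (Mtx2) and 7 were lower, against 25.2% and 22.4% of all genes. Lower were Timm44, Tomm20l and Tomm70a again and now Afg3l2, Grpel1, Immt and Timm10b. The log2 folds of Clpp and Timm22, called higher over all cells, were negative there. With at least 1000 UMIs and 500 genes the counts were 3 and 3 (22.6% and 22.4% of all genes), and with equal numbers of cells of each class they were 1 (Tomm40) and 0 (2.03% and 4.63% of all genes). Without MMPlow 1 they were 4 and 2 (18.4% and 18.4% of all genes), and without MMPhigh 1 they were 13 and 1 (25.8% and 25.3% of all genes).

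**Figure D3:**
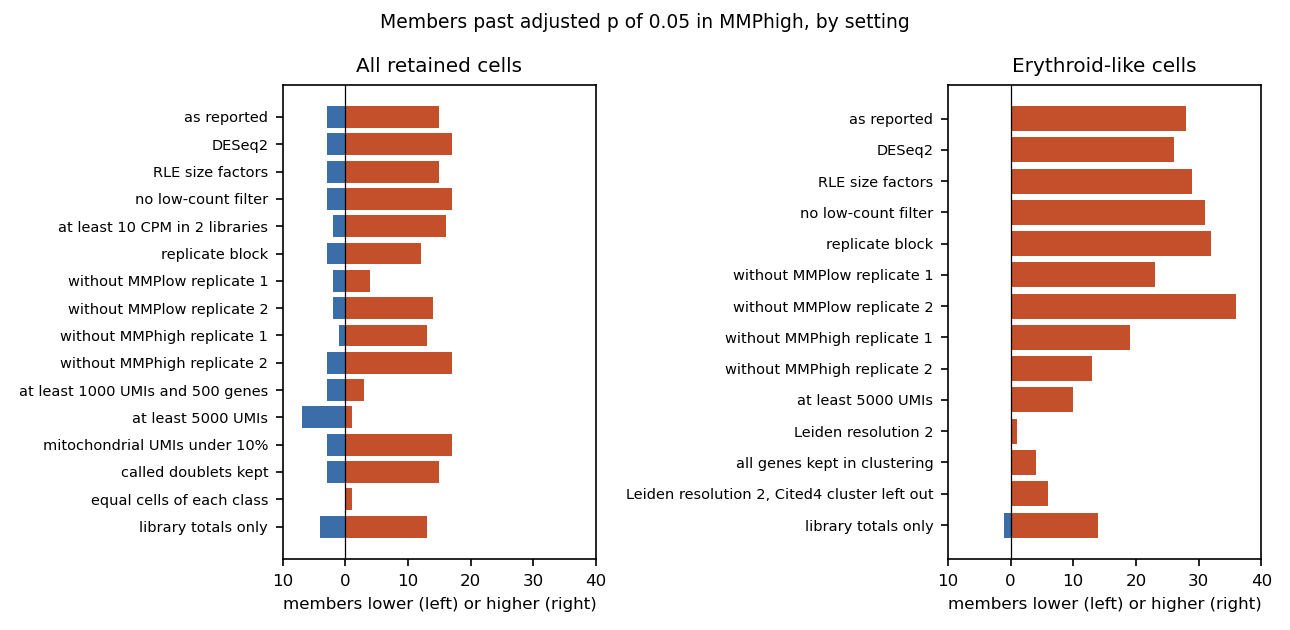
Number of members past an adjusted p of 0.05 (edgeR, or DESeq2 in its own bar), higher in MMPhigh to the right in red and lower to the left in blue, as reported and under each alternative, for all retained cells (left panel) and erythroid-like cells (right panel). The red bars shrink from 15 to 1 at 5000 UMIs on the left, and from 28 to 1 at the finer clustering on the right.

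Within erythroid-like cells (1291 and 1254 cells in MMPlow, 138 and 318 in MMPhigh), 28 of 43 members tested were higher in MMPhigh and 0 lower, where 18.5% of all genes were higher and 21.0% lower. At an unadjusted p under 0.05, 35 were higher and 0 lower (23.0% and 25.7% of all genes), and DESeq2 called 26 and 0 (13.2% and 13.3% of all genes). The median log2 fold was 0.59 for the members and -0.02 for all genes. All 5 members of TIM23, all 5 small TIM chaperones tested, both prohibitins and both subunits of the processing peptidase rose. So did 4 of 8 members of the TOM complex, 3 of 4 sorting and cristae proteins, 2 of 3 in TIM22, 2 of 6 in the motor and 2 of 5 proteases.

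Timm17a, of the TIM23 channel, stood at 111 and 146 CPM in MMPlow and 207 and 196 in MMPhigh, with no overlap (log2 fold 0.96 ± 0.18, adjusted p = 0.000717). Mtx1, a partner of Mtx2, stood at 52.4 and 51.8 against 77.4 and 78.8 CPM (log2 fold 0.91 ± 0.13, adjusted p = 0.000112), and Samm50, the SAM channel, at 110.3 and 125 against 163 and 159.8 (log2 fold 0.77 ± 0.15, adjusted p = 0.00121). Mtx1 was the one member called at every alternative run in this class, with adjusted p up to 0.0135. Timm10, a small TIM chaperone, stood at 72.5 and 98.0 against 133 and 123 CPM (log2 fold 0.89 ± 0.17, adjusted p = 0.00116), and Tomm22 at 194 and 242 against 328 and 316 (log2 fold 0.87 ± 0.19, adjusted p = 0.00200). Hspe1 rose from 1171 and 1380.4 to 1619 and 1685 CPM (log2 fold 0.69 ± 0.23, adjusted p = 0.0280), and Hspd1 read 1641 and 2116 against 2274 and 2396, short of the threshold (adjusted p = 0.0575). None of these genes had overlapping groups. Yme1l1 was the only member tested with a negative fold and read 129 and 121 against 90.5 and 92.9 CPM (log2 fold -0.12 ± 0.13, adjusted p = 0.491).

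Scaling set part of this size. The TMM factors, which allow for the mix of transcripts, put erythroid-like log2 folds 0.32 above those from library totals. With library totals only, 14 members were higher and 1 lower (Yme1l1), against 6.59% and 37.6% of all genes, with a median of 0.25. On plain CPM 27 members lay above and 5 below without overlap, against 17.3% and 59.0% of all genes. The choice of cells moved the count further. With at least 5000 UMIs per cell 10 members were higher, against 8.13% of all genes, with a median of 0.15. With finer clustering 1 was higher (Mtx1), against 2.11% of all genes. With all genes kept in the clustering, the members among them, 4 were (Mtx1, Pmpcb, Timm17a and Tomm40), against 5.68% of all genes. The log2 fold of Hspd1 was negative at both of these clusterings, and that of Hspe1 was negative with all genes kept. The finer clustering moved 62.5% and 41.5% of the MMPlow erythroid-like cells to a haematopoietic progenitor-like class, and 5.80% and 2.20% of the MMPhigh ones. At 5000 UMIs and more the members' share was 1.2% and 1.26% in MMPlow and 1.25% and 1.28% in MMPhigh, with overlap. After the finer clustering it was 1.22% and 1.29% in MMPlow and 1.25% and 1.29% in MMPhigh, with overlap. There the class held 559 MMPhigh 1 cells, since cluster 35, led by Cited4 and Hbb-bs, brought 1 and 4 cells in MMPlow and 439 and 1 in MMPhigh. With the finer clustering but without that cluster, tested after seeing the data, 6 members were higher (Mtx1, Phb2, Pmpcb, Samm50, Timm17a and Tomm40) and 0 lower, against 7.1% and 9.31% of all genes. Without MMPhigh 2 the count was 13, against 8.38% of all genes.

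Median UMIs per erythroid-like cell were 3072 and 4543 in MMPlow and 39552 and 56795.5 in MMPhigh. The 12 endothelial markers summed to 656 and 525 in MMPlow and 145 and 139 in MMPhigh, in CPM, with 4 of them at 0 in MMPhigh 1 and none in the others, and the 11 progenitor markers summed to 1949 and 1638 in MMPlow and 1201 and 1174 in MMPhigh. The erythroid markers summed to 12473 and 8986 in MMPlow and 10949.8 and 1515 in MMPhigh, so MMPhigh 2 stood apart. Globin genes took 1.33% and 0.964% of the class's UMIs in MMPlow and 1.14% and 0.128% in MMPhigh. Cluster 24 of the class, led by Hbb-y and Hba-x, held 24 and 27 cells in MMPlow and 22 and 3 in MMPhigh. In the other 7 classes tested, the endothelial markers summed to 605 to 1897 CPM in MMPlow libraries and 19.0 to 365 in MMPhigh libraries, and median UMIs per cell ran from 2871 to 6064 and from 3214 to 43806. The part of depth, of RNA from other cells and of the stage of the cells in the results by class was not tested.

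**Figure D4:**
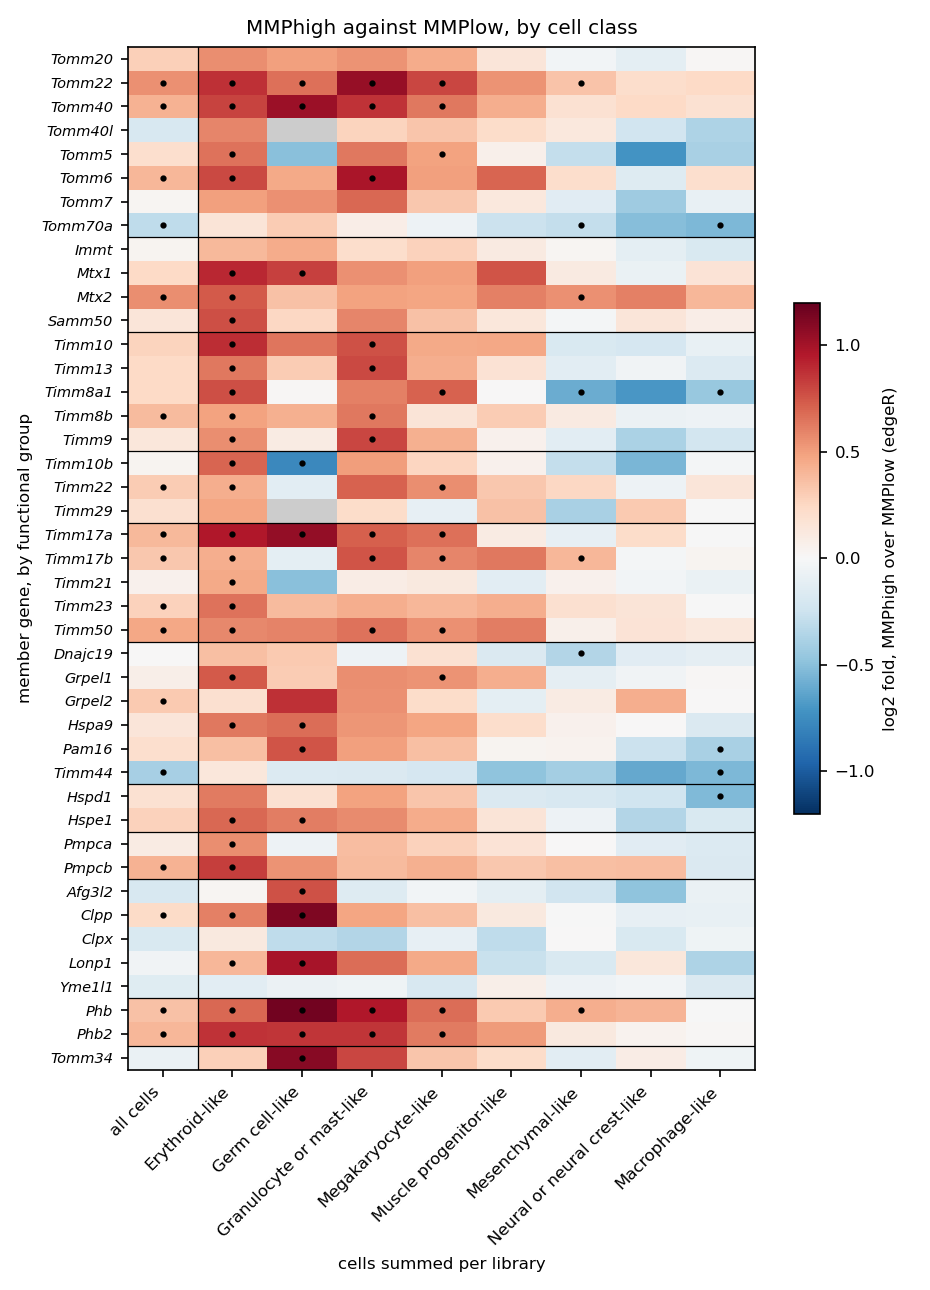
Fitted log2 fold of MMPhigh over MMPlow for each member (rows, by functional group, lines between groups) in all cells and in 8 classes (columns); red is higher in MMPhigh, blue lower, grey not tested, and a dot marks an edgeR adjusted p under 0.05. The erythroid-like column holds 28 dots, all on red, the granulocyte or mast-like and megakaryocyte-like columns hold 12 and 11 on red, and the macrophage-like column holds 5 on blue.

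In the cluster named germ cell-like (190 and 202 against 44 and 61 cells), the markers of the name differed between the groups. The 10 germ cell markers summed to 183 and 263 in MMPlow and 3568 and 4002 in MMPhigh, in CPM. Of these 9 passed the filter on low counts and 9 were called higher, with a median log2 fold of 3.96. The epithelial or mesonephric markers summed to 1245 and 1044 in MMPlow and 1128 and 541 in MMPhigh, above the germ cell markers in both MMPlow libraries. The MMPlow cells of this cluster therefore go against its name, and the values that follow set unlike cells side by side. The part of that in the members' differences was not tested. Here 13 of 41 members tested were higher and 1 lower, against 11.6% and 14.3% of all genes. Phb rose from 54.5 and 53.2 to 103 and 125 CPM (log2 fold 1.16 ± 0.22, adjusted p = 0.00384), and Clpp from 65.4 and 59.8 to 118 and 140.3 (log2 fold 1.12 ± 0.21, adjusted p = 0.00392). Tomm40 rose from 104 and 119.7 to 189.9 and 244 CPM (log2 fold 1.03 ± 0.21, adjusted p = 0.00537), and Hspe1 from 664 and 687 to 911 and 1066 (adjusted p = 0.0197). Hspd1 read 759 and 863 against 771 and 988 CPM, with overlap, so 1 of the 2 chaperonin subunits passed here. Timm10b fell from 108 and 119 to 57.6 and 67.0 CPM (log2 fold -0.78 ± 0.21, adjusted p = 0.0203). Apart from Hspd1, the genes named here did not overlap between groups. Without MMPlow 1, 0 members were called (0.845% and 1.91% of all genes), and without MMPlow 2 the count was 0 (1.18% and 2.39% of all genes). Without MMPhigh 1 the counts were 27 and 1 (23.4% and 22.7% of all genes), without MMPhigh 2 they were 13 and 2 (12.2% and 13.9% of all genes), and DESeq2 called 5 and 0 (4.69% and 7.99% of all genes).

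In granulocyte or mast-like cells (880 and 1784 against 35 and 46 cells), 12 of 43 members were higher and 0 lower, against 8.89% and 12.4% of all genes. At an unadjusted p under 0.05 the counts were 26 and 0 (15.3% and 19.5% of all genes), and DESeq2 called 7 and 0 (4.56% and 6.39% of all genes). Tomm22 stood at 117 and 132 CPM in MMPlow and 224 and 222 in MMPhigh (log2 fold 1.04 ± 0.19, adjusted p = 0.00267), and Tomm40 at 129.8 and 117 against 194 and 195 (log2 fold 0.86 ± 0.19, adjusted p = 0.00661). Tomm6, a small TOM subunit, stood at 137 and 196 against 262 and 309 CPM, Phb at 43.3 and 55.6 against 80.3 and 87.2 and Phb2 at 178 and 196 against 271 and 313, and all 5 were higher without overlap. Neither chaperonin subunit passed, with Hspd1 at 715 and 845 against 848 and 1048 CPM (adjusted p = 0.130). Without MMPhigh 2, 0 members were higher, against 1.17% of all genes, and without MMPlow 1 the count was 3, against 3.22% of all genes. The granulocyte or mast markers summed to 3376 and 2473 in MMPlow and 10637 and 4092 in MMPhigh, in CPM, and the progenitor markers to 3940.0 and 2850.5 in MMPlow and 2793 and 2796 in MMPhigh. The progenitor markers thus stood above the markers of the name in both MMPlow libraries and below them in both MMPhigh libraries, so the MMPlow cells go against the name by that measure, and its part in the members' differences was not tested. The class held a cluster that the MMPhigh libraries lacked. Cluster 9, led by Mpo and Camp, held 753 and 962 cells in MMPlow and 35 and 46 in MMPhigh, and cluster 15, led by S100a9 and Stfa1, held 127 and 822 cells in MMPlow and 0 and 0 in MMPhigh. In cluster 9 alone, tested after seeing the data, 20 of 43 members were higher and 0 lower, against 10.4% and 10.0% of all genes, with Tomm22 at a log2 fold of 1.07. Library totals lowered the folds by 0.21 and left 7 higher, against 4.33% of all genes. The finer clustering assigned 77.1% and 54.4% of the MMPhigh cells of this class, and 48.8% and 26.6% of the MMPlow cells, to progenitors.

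In megakaryocyte-like cells (946 and 1050 against 139 and 117 cells), 11 of 43 members were higher and 0 lower, against 6.05% and 9.18% of all genes. The unadjusted counts were 25 and 0 (14.0% and 15.9% of all genes), and DESeq2 called 4 and 0 (2.37% and 4.48% of all genes). Tomm22 stood at 108 and 141 CPM in MMPlow and 192 and 205 in MMPhigh (log2 fold 0.80 ± 0.17, adjusted p = 0.00855), and Tomm40 at 103 and 109 against 146 and 153 (log2 fold 0.63 ± 0.15, adjusted p = 0.0135). Timm8a1 stood at 109 and 147 against 179 and 205 CPM (log2 fold 0.71 ± 0.18, adjusted p = 0.0182), Phb2 at 175 and 198 against 243 and 281 and Timm17a at 84.0 and 112 against 146 and 139, all higher without overlap. The chaperonin read 767 and 931 against 905 and 1051 CPM for Hspd1, with overlap, and 579 and 599.8 against 681 and 786 for Hspe1, and neither passed. With at least 5000 UMIs per cell 0 members were higher, against 0.952% of all genes, and without MMPlow 1 the count was 0, against 0.408% of all genes. Without MMPhigh 2 the count was 3, against 2.44% of all genes. With library totals only, folds were 0.13 lower and 5 were higher, against 3.63% of all genes. The calls fell to 4 at the finer clustering and 6 with all genes kept in the clustering. The shares of all genes there are not given, so these are no result about the members. The finer clustering left 41.9% of the class's MMPhigh 2 cells without a name, against 27.3%, 23.4% and 22.3% in MMPlow 1, MMPlow 2 and MMPhigh 1.

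Haematopoietic progenitor-like cells formed no class in the clustering reported above and did at the finer clustering, with 1262 and 1018 cells in MMPlow and 35 and 33 in MMPhigh, and this comparison was added after the clusters had been seen. With all genes kept in the clustering they also formed a class, of 1050 and 770 cells in MMPlow and 24 and 15 in MMPhigh. That was under the minimum of 20 in MMPhigh 2. At the finer clustering, 14 of 43 members were higher and 1 lower (Afg3l2, a protease of the inner membrane), against 11.2% and 9.95% of all genes. Tomm22 stood at 112 and 123 CPM in MMPlow and 233 and 211 in MMPhigh (log2 fold 1.16 ± 0.18, adjusted p = 0.00108), and Tomm6 at 120.4 and 168 against 254 and 306 (log2 fold 1.24 ± 0.21, adjusted p = 0.00195). Timm13 stood at 213 and 219.8 against 310.4 and 341 CPM, Phb at 65.3 and 78.0 against 113 and 106 and Timm8b at 119 and 131 against 159 and 189, all higher without overlap. Hspe1 rose from 660.4 and 678 to 850.0 and 976 CPM (adjusted p = 0.0211), whereas Hspd1 read 857 and 1061 against 794 and 1163, with overlap. Different clusters held most of this class in the groups. Cluster 8 of that clustering, led by Slc25a21 and Ermap, held 810 and 525 cells in MMPlow and 8 and 7 in MMPhigh, cluster 38, led by Cpa3, held 110 and 79 cells in MMPlow and 0 and 0 in MMPhigh, and cluster 25, with Flt3 and Il7r, held 342 and 414 cells in MMPlow and 27 and 26 in MMPhigh. In cluster 25 alone, also tested after seeing the data, 21 of 43 members were higher and 0 lower, against 9.88% and 7.76% of all genes, with Tomm22 at a log2 fold of 0.97. Of the class's 35 and 33 MMPhigh cells, 27 and 25 were also in the granulocyte or mast-like class above. Another 8 and 7 were in the erythroid-like class. The counts of these classes therefore rest largely on the same MMPhigh cells and are not separate results. Median UMIs per cell in the class were 2899.5 and 3527 in MMPlow and 4455 and 30992 in MMPhigh, and the part of depth was not tested. Without MMPlow 1 the call left was Tomm22 (1.86% and 3.0% of all genes). Without MMPlow 2 (5.22% and 5.82% of all genes) or MMPhigh 2 (3.44% and 2.55% of all genes) the calls were Tomm22 and Tomm6. Without MMPhigh 1 the counts were 24 and 1 (14.2% and 12.6% of all genes), and DESeq2 called 4 and 0 (5.42% and 2.98% of all genes).

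In macrophage-like cells (540 and 664 against 447 and 876 cells), 0 of 43 members were higher and 5 lower, against 11.1% and 12.6% of all genes. The unadjusted counts were 1 and 7 (16.8% and 18.3% of all genes), and DESeq2 called 0 and 3 (5.94% and 9.04% of all genes). The members' share of lower calls was thus near the background by either rule of edgeR, and their share of higher calls below it. Tomm70a fell from 137 and 138 to 88.7 and 90.3 CPM (log2 fold -0.54 ± 0.10, adjusted p = 0.00301). Hspd1 fell from 717 and 782 to 458 and 522 CPM (log2 fold -0.53 ± 0.13, adjusted p = 0.0122), while Hspe1 read 632 and 701 against 549 and 565 and did not pass. Timm44 fell from 87.2 and 61.1 to 45.5 and 49.2 CPM, Timm8a1 from 94.4 and 118 to 74.6 and 72.8 and Pam16, a regulator of the motor, from 57.6 and 63.2 to 41.7 and 45.8. None of these overlapped between groups. With at least 5000 UMIs per cell 12 were lower, these 5 among them, against 15.2% of all genes. At the finer clustering, which widened this class to 1041 and 1262 cells in MMPlow and 1314 and 1009 in MMPhigh, 6 were higher and 1 lower (Tomm70a), against 10.1% and 10.8% of all genes. Of the 1314 and 1009 MMPhigh cells there, cluster 19, led by Aif1 and Ppbp, held 852 and 131, and of the MMPlow cells cluster 11, led by Mrc1 and F13a1, held 567 and 643. In the class as first clustered, cluster 23, led by Mndal and Mrc1, held 129 and 52 cells in MMPlow and 0 and 0 in MMPhigh. Without it, in a fit also added after seeing the data, 0 members were higher and 8 lower, against 12.2% and 13.7% of all genes. Without MMPlow 2 the counts were 3 and 3 (10.2% and 11.9% of all genes), and without MMPhigh 1 they were 1 and 3 (6.88% and 9.42% of all genes).

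In mesenchymal-like cells (1917 and 2090 against 305 and 419 cells), 4 of 43 members were higher and 3 lower, against 7.73% and 12.9% of all genes, shares near the background. Mtx2 rose from 81.7 and 88.3 to 116 and 124 CPM (log2 fold 0.55 ± 0.10, adjusted p = 0.00168), Phb from 48.3 and 53.4 to 63.5 and 69.3 and Timm17b from 63.7 and 65.7 to 84.1 and 81.2. Timm8a1 fell from 74.5 and 78.7 to 50.1 and 48.2 CPM (log2 fold -0.60 ± 0.10, adjusted p = 0.00127), and Dnajc19, a cochaperone of the motor, from 112 and 106 to 78.7 and 86.1 (adjusted p = 0.0222). None of these overlapped between groups. The chaperonin did not pass, at 695 and 733 against 602 and 607 CPM for Hspd1 and 621 and 576 against 552 and 556 for Hspe1. Timm8a1 was called lower at every alternative run in this class. Without MMPlow 1 it was the only call (1.47% and 4.95% of all genes), without MMPlow 2 the counts were 1 and 2 (2.24% and 6.93% of all genes), and DESeq2 called 1 and 1 (3.69% and 7.61% of all genes).

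In muscle progenitor-like cells (158 and 201 against 464 and 212 cells) edgeR called 0 members higher and 0 lower, against 0.108% and 1.5% of all genes. At an unadjusted p under 0.05, 3 were higher and 0 lower (4.31% and 6.41% of all genes), DESeq2 called 0 and 0 (0.108% and 1.01% of all genes), and 13 were higher without MMPhigh 2, against 12.0% of all genes. Cluster 18, led by Tnnc2 and Tnnt2, held 13 and 43 cells in MMPlow and 436 and 105 in MMPhigh of this class, and cluster 22, led by Ttn and Myog, held 145 and 158 cells in MMPlow and 28 and 107 in MMPhigh, so the clusters' shares of the class differed between the groups. In cluster 22 alone, also tested after seeing the data, edgeR called 0 and 0, against 0.261% and 1.96% of all genes. The unadjusted counts there were 1 and 3 (5.41% and 6.77% of all genes). Over the class Hspd1 read 920.1 and 1019.7 against 752 and 823 CPM, lower in MMPhigh without overlap, and Hspe1 818 and 814 against 885 and 769, with overlap, and neither passed. In neural or neural crest-like cells (263 and 280 against 1046 and 849 cells) edgeR called 0 higher and 0 lower, against 0.665% and 1.59% of all genes. The unadjusted counts were 2 and 7 (8.38% and 10.1% of all genes), and DESeq2 called 0 and 1, Tomm5 (1.12% and 2.65% of all genes). Without MMPhigh 1 the counts were 1 (Mtx2) and 6 (6.51% and 8.77% of all genes), and without MMPhigh 2 they were 0 and 3 (1.99% and 3.51% of all genes). Hspd1 read 443 and 423 against 371 and 350.5 CPM in these cells and Hspe1 392 and 343 against 319 and 247, lower in MMPhigh without overlap and without passing. At the finer clustering Hspd1 and Hspe1 were among 8 members called lower, beside Mtx2, the 1 called higher (12.2% and 14.2% of all genes). That clustering left 73.9% of the class's MMPhigh 1 cells without a name, against 39.5%, 35.4% and 31.3% in MMPlow 1, MMPlow 2 and MMPhigh 2, and it added cluster 24, led by Fabp7 and Cdh6, with 281 and 305 cells in MMPlow and 116 and 181 in MMPhigh. The part of this change of cells in the calls was not tested.

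Endothelial-like cells were too few in MMPhigh for the minimum of 20 per library, and a fit on the 15 and 14 cells there was added after the data were seen. Of 44 members tested, 0 were higher and 1 lower, against 0.59% and 0.796% of all genes. The unadjusted counts were 1 and 6 (4.8% and 8.42% of all genes). Hspe1 was the call, at 529 and 468 CPM in MMPlow and 351 and 240.0 in MMPhigh (log2 fold -0.81 ± 0.20, adjusted p = 0.0480), and Hspd1 read 574 and 579 against 397 and 374 CPM (adjusted p = 0.0985). Neither overlapped between groups, and DESeq2, by which 2.13% and 1.09% of all genes were higher and lower, called Hspd1 and not Hspe1. Hspe1 lost its call without MMPlow 1, MMPlow 2 or MMPhigh 2, and without MMPhigh 1 the count was 4, against 1.13% of all genes.

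The difference between groups was itself compared across the 8 classes in one edgeR model of class by library sums. It varied with class for 21 of 43 members at an adjusted p under 0.05, against 35.7% of all genes. Timm10b had the smallest p of the members (adjusted p = 0.000230), with a log2 fold of 0.70 in erythroid-like cells and -0.78 in germ cell-like cells. Timm8a1 (adjusted p = 0.00102) ran from 0.77 in erythroid-like cells to -0.60 in mesenchymal-like and -0.69 in neural or neural crest-like cells. Timm17a (adjusted p = 0.00121) was at 1.06 in germ cell-like and 0.96 in erythroid-like cells and at -0.09 in mesenchymal-like cells. Hspd1 (adjusted p = 0.00180) ran from 0.63 in erythroid-like cells to -0.53 in macrophage-like cells. Mtx2 had the largest p of the members (adjusted p = 0.585), with log2 folds of 0.35 to 0.73 over the 8 classes. The count was 1 without MMPlow 1, where 6.16% of all genes passed, 2 without MMPlow 2 (10.3%) and 36 without MMPhigh 1 (45%), so the count moved as that over all genes did. With germ cell-like cells left out of the model, it was 15, against 31.2% of all genes, with adjusted p = 0.00176 for Timm10b.

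Partners that act together, and a pair of alternative subunits, differed in how closely their levels followed each other over 32 sums, of 8 classes in 4 libraries. Hspd1 and Hspe1 had a Pearson r of 0.94 on log2(CPM + 1). The prohibitins Phb and Phb2 had an r of 0.87, and the small TIM partners Timm9 and Timm10 an r of 0.85. The r was 0.27 for the peptidase subunits Pmpca and Pmpcb, 0.28 for Timm8b and Timm13, 0.12 for the alternative channel subunits Timm17a and Timm17b, and -0.06 for the protease Clpp and its unfoldase Clpx. The median over all pairs of 42 members with a mean over 10 CPM was 0.51. Class means ran from 39.0 to 60.8 CPM for Pmpca and from 42.4 to 58.1 for Clpx, against 397 to 2107 for Hspd1. The part of level and range in the r was not tested. The sums share libraries, depth and classes, so these values are descriptions.

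**Figure D5:**
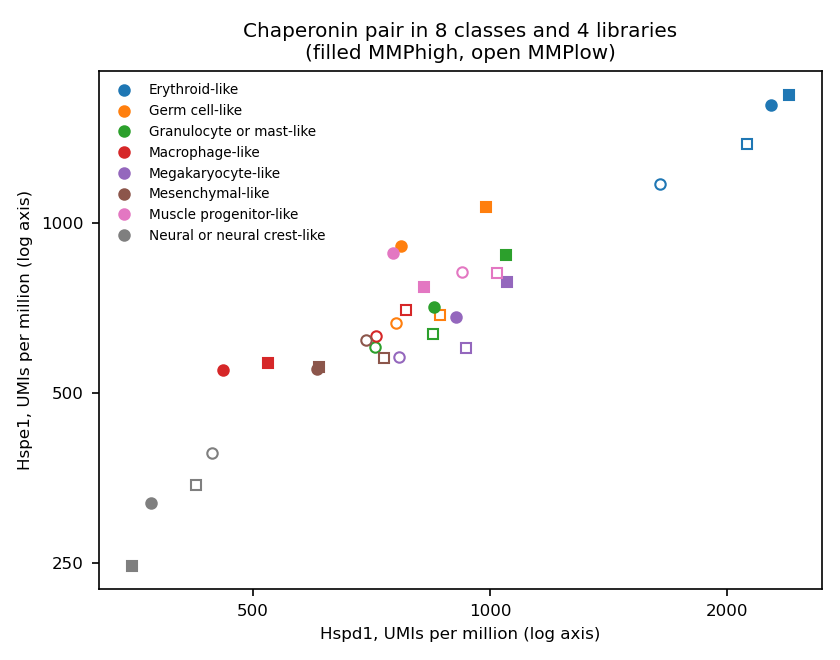
Hspe1 against Hspd1 in CPM on log axes, with 1 point for each of 8 classes in 4 libraries, colour for class, filled for MMPhigh and open for MMPlow, circles for replicate 1 and squares for replicate 2. Erythroid-like points lie at the upper right, from 1641 to 2396 for Hspd1, and neural or neural crest-like points at the lower left.

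Among other import, peptidase and protease genes, a list outside the members, 7 of 29 tested rose over all cells and 4 fell, with a median log2 fold of 0.04. Both shares were under those of all genes (27.3% and 26.5%), so the genes named next are examples and no result about the list. Chchd4 and Gfer, the disulfide relay that traps small proteins between the membranes, rose with log2 folds of 0.33 and 0.30, and the rhomboid protease Parl with 0.49 (adjusted p = 0.00125). Spg7, a protease that partners Afg3l2, fell from 59.2 and 51.0 to 34.4 and 35.7 CPM (log2 fold -0.62 ± 0.09, adjusted p = 0.000707). Mtx3, the remaining metaxin, fell from 13.1 and 12.5 to 8.36 and 7.75 CPM, against the direction of Mtx2. In erythroid-like cells 13 of 29 rose and 3 fell, Spg7, Mtx3 and the insertase relative Mtch1.

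Neighbouring gene groups were measured beside the members, and their counts stand against 27.3% and 26.5% of all genes called higher and lower over all cells, 18.5% and 21.0% in erythroid-like, 11.1% and 12.6% in macrophage-like and 7.73% and 12.9% in mesenchymal-like cells. Of the mitochondrial ribosomal proteins, 32 of 78 rose and 2 fell over all cells, with a median log2 fold of 0.22, and 69 rose and 0 fell in erythroid-like cells, with a median of 0.70. Nuclear OXPHOS genes, which encode the respiratory chain, had medians of 0.15 and 0.47. Of the cytosolic heat shock genes, 6 of 10 rose and 1 fell over all cells, and 7 rose and 0 fell in erythroid-like cells. Hsp90aa1, a cytosolic chaperone, stood at 974 and 1123 CPM in MMPlow and 1933 and 2079 in MMPhigh over all cells (log2 fold 0.97 ± 0.13, adjusted p = 0.000386), and the inducible Hspa1a at 0.195 and 0.196 against 6.32 and 8.07. In macrophage-like cells, where Hspd1 fell, 2 of the 10 rose and 1 fell.

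Regulators and targets of the mitochondrial stress response rose for 7 and fell for 1 of 10 tested over all cells. Asns, which makes asparagine, stood at 36.5 and 40.8 against 67.0 and 79.1 CPM (log2 fold 0.95 ± 0.10, adjusted p = 0.000118), and Phgdh, of serine synthesis, at 81.1 and 83.7 against 149 and 143 (log2 fold 0.86 ± 0.08, adjusted p = 6.92e-05). Atf4, the regulator, stood at 57.0 and 58.1 against 61.9 and 69.6 CPM (adjusted p = 0.0474), and Trib3, one of its targets, fell. Growth and nucleolar genes rose for 9 and fell for 1 of 10 in erythroid-like cells, and rose for 0 and fell for 5 in macrophage-like cells. Of 10 immediate early genes, which answer handling within minutes in many tissues, 5 rose and 1 fell over all cells, and 5 rose and 1 fell in erythroid-like cells. In macrophage-like cells 8 of the 10 rose and 0 fell, with a median log2 fold of 1.51 and a sum of 276 and 231 in MMPlow and 628 and 563 in MMPhigh, in CPM. In mesenchymal-like cells 7 rose and 0 fell. The part of these programmes in the members' differences was not tested.

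In erythroid-like cells the log2 fold also varied with the genomic span of a gene, with a median of 0.29 over genes under 10 kb, 0.05 over those of 10 to 50 kb and -0.27 over longer ones. The members had medians of 0.61 for the 21 under 10 kb and 0.56 for the 21 of 10 to 50 kb. In progenitor-like cells the same medians were 0.39 and -0.02 for genes and 0.64 and 0.30 for members. In granulocyte or mast-like cells the medians over genes of the 3 spans were 0.40, 0.03 and -0.41, and those of the members under 10 kb and of 10 to 50 kb were 0.63 and 0.53. In megakaryocyte-like cells they were 0.20, 0.02 and -0.15 for genes and 0.45 and 0.36 for members, and in germ cell-like cells 0.18, 0.06 and -0.18 and 0.42 and 0.50. Malat1, a nuclear RNA, took 0.466% and 0.346% in MMPlow and 0.178% and 0.155% in MMPhigh of erythroid-like UMIs. It took 0.797% and 0.667% in MMPlow and 0.358% and 0.304% in MMPhigh in granulocyte or mast-like cells, 1.33% and 1.15% in MMPlow and 0.584% and 0.436% in MMPhigh in megakaryocyte-like cells and 0.833% and 0.762% in MMPlow and 0.525% and 0.261% in MMPhigh in germ cell-like cells. Its share was lower in MMPhigh without overlap in each of these classes. The same held in macrophage-like, mesenchymal-like, muscle progenitor-like and neural or neural crest-like cells. Macrophage-like cells, where members were called lower, read 0.584% and 0.466% in MMPlow and 0.436% and 0.439% in MMPhigh. Their gene medians over the 3 spans were -0.0014, -0.018 and 0.043. In muscle progenitor-like cells, with 0 members called, these medians were 0.27, 0.01 and -0.19. The part of gene span and of nuclear RNA in the members' differences was not tested.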

How the data were processed

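The authors deposited, per the file headers, 1 table of UMI counts per library, as whole numbers per gene and barcode. The submitters' processing notes name Cell Ranger 2.1.1 and mm10, while the file headers name Cell Ranger 7.0.1, so the version is not settled. Filters on cells and reads before deposit are not given in the sources used here.

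From these counts, barcodes with at least 2000 UMIs, 1000 genes and at most 25% mitochondrial UMIs were kept. Scrublet's automatic threshold marked 2, 996, 0 and 68 barcodes as doublets, so the 6% with the highest scores were removed in each library instead, a rule chosen after seeing the data. Cells were clustered in scanpy 1.11.5 (2000 variable genes, 30 components, Leiden resolution 1). Members, mitochondrially encoded, nuclear OXPHOS and cytosolic ribosomal protein genes were left out of this step. Clusters were named from marker lists by thresholds set after the clusters were seen. Counts were summed per library and class with at least 20 cells in each library. Sums went into edgeR 4.0.16 (R 4.3.3), by filterByExpr, TMM factors and the quasi-likelihood test, with Benjamini-Hochberg adjustment over all genes. On simulated counts the test recovered 86.5% of changes of 1 on the log2 scale and 98% of changes of 2 over all cells (20019 genes), 70.2% and 97.9% in erythroid-like cells (12088 genes), and 15.6% and 91.2% in germ cell-like cells (9366 genes). The simulation gave every gene the same dispersion and the groups the same mix of cells. Changes smaller than 1 were not simulated, so recovery of the smaller folds reported here is not known.

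The members and gene lists were chosen with earlier results of these data known. Named over all cells were 12 standing members and, in each functional group, the member with the highest level and the one with the smallest adjusted p. Named within a class were up to 5 called members with the smallest p, with Hspd1 and Hspe1, and for the difference across classes the 6 with the smallest p. Members named beyond this, such as Tomm7, Pmpca, Tomm20l, and Yme1l1 in erythroid-like cells, were chosen after their values were seen. Alternatives were DESeq2 1.42.0, RLE factors, library totals, no filter on low counts, a replicate block, other cell filters, other clusterings, each library left out and, added after seeing the data, classes restricted to clusters that both groups hold.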

Additional observations from a re-analysis of the deposited data

Results flagged for a closer look

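For 6 members the difference between MMPhigh and MMPlow varied most clearly between the 8 classes, by edgeR's test of class by group in one model. The adjusted p was 0.00023 for Timm10b, which was called higher in erythroid-like cells and lower in germ cell-like cells, whose own germ cell markers differ between the groups. It was 0.00102 for Timm8a1, higher in erythroid-like and megakaryocyte-like cells and lower in mesenchymal-like and macrophage-like cells. It was 0.00121 for Timm17a, 0.0018 for Hspd1, 0.00284 for Lonp1 and 0.00441 for Clpp. Hspd1 had its one call among these classes in macrophage-like cells, where it was lower. Lonp1 had log2 folds of 0.39 in erythroid-like and -0.37 in macrophage-like cells, and Clpp of 1.12 in germ cell-like and -0.10 in neural or neural crest-like cells. With germ cell-like cells left out of the model, the adjusted p was 0.00176 for Timm10b, 0.00120 for Timm8a1, 0.00656 for Timm17a, 0.00156 for Hspd1 and 0.0217 for Lonp1, and Clpp no longer passed, at 0.157. The number of members past the threshold fell from 21 to 1 without MMPlow 1 and to 2 without MMPlow 2, while the share of all genes past it fell from 35.7% to 6.16% and 10.3%.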

How the results depend on the processing

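The counts of members moved with the settings as follows, each time higher then lower in MMPhigh where both are given. Counts for which no share of all genes is given, here or with the class, are no result about the members. Over all cells they were 3 higher at 1000 UMIs, 1 and 7 at 5000 UMIs, and 1 and 0 with equal cells of each class. At 5000 UMIs they were 10 higher in erythroid-like, 6 and 0 in germ cell-like and 0 higher in megakaryocyte-like cells. They were 1 and 5 in mesenchymal-like, and 12 and 2 lower in macrophage-like and neural or neural crest-like cells. No share of all genes is given there for germ cell-like, mesenchymal-like and neural or neural crest-like cells. At resolution 2 they were 1 and 4 higher in erythroid-like and megakaryocyte-like, 6 and 1 in macrophage-like, 1 and 8 in neural or neural crest-like, and 5 lower in mesenchymal-like cells. With all genes in the clustering they were 4 and 6 higher in erythroid-like and megakaryocyte-like, 1 and 8 in macrophage-like, and 1 lower in mesenchymal-like cells. For the last 3 of these classes no share of all genes is given at that setting. DESeq2 gave 5 and 0 in germ cell-like, 4 and 0 in progenitor-like, 1 and 1 in mesenchymal-like, 7 and 4 higher in granulocyte or mast-like and megakaryocyte-like, and 3 and 1 lower in macrophage-like and neural or neural crest-like cells. Library totals, added after seeing the data, gave 14 and 1 in erythroid-like, 7 and 5 higher in granulocyte or mast-like and megakaryocyte-like, and 2 and 6 lower in germ cell-like and mesenchymal-like cells. Classes restricted to clusters that both groups hold were also added. They gave 20 and 0 in granulocyte or mast-like cluster 9 and 0 and 8 in macrophage-like cells without cluster 23. Progenitor-like cluster 25 gave 21 and 0, and erythroid-like cells at resolution 2 without cluster 35 gave 6 and 0. The progenitor-like class shares most of its MMPhigh cells with the granulocyte or mast-like class, so their counts are not separate. With no filter on low counts they were 1 higher in macrophage-like and 1 and 2 in neural or neural crest-like cells. The replicate block gave 25 and 21 higher in granulocyte or mast-like and megakaryocyte-like cells and 1 higher in macrophage-like cells. It gave 1 and 5 in neural or neural crest-like and 0 lower in progenitor-like cells. Over all cells it gave 12 higher, against 26.6% of all genes, and no such share is given for the classes. The libraries share only a replicate number, and deviations of same-numbered libraries correlated at -0.05 to 0.21. As a mean over cells, the members' share was 0.491% in mesenchymal-like and 0.480% in endothelial-like cells. The causes of these moves were not tested.

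With 1 library left out, higher and lower counts ran from 4 to 17 and 1 to 3 over all cells, 13 to 36 and 0 to 0 in erythroid-like, 0 to 27 and 0 to 2 in germ cell-like, 0 to 16 and 0 to 0 in granulocyte or mast-like, 0 to 16 and 0 to 0 in megakaryocyte-like, 0 to 3 and 3 to 6 in macrophage-like, 0 to 5 and 1 to 4 in mesenchymal-like, 0 to 13 and 0 to 0 in muscle progenitor-like, 0 to 1 and 0 to 6 in neural or neural crest-like, 0 to 0 and 0 to 4 in endothelial-like and 1 to 24 and 0 to 1 in progenitor-like cells. For the difference across classes they ran from 1 to 36. The lone library of a group is then assumed to vary like the other group's. These ranges stand without the shares of all genes, so they are no result about the members.

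Of the named members' values under alternatives other than those added after seeing the data, 628 kept direction and side of the threshold, 121 lost the call, 20 gained one and 25 changed sign. Log2 folds that changed sign at 5000 UMIs over all cells were Clpp -0.0537, Hspa9 -0.0950, Hspd1 -0.17, Hspe1 -0.0794, Immt -0.26, Timm10b -0.26, Timm13 -0.12, Timm22 -0.0375 and Tomm20 -0.0263. Timm10b was at -0.15 with 1000 UMIs, -0.00590 with library totals and -0.0286 to 0.0844 with 1 library left out (negative without MMPhigh 1). Immt was at -0.00316 with totals and -0.0893 to 0.14 with 1 library left out (negative without MMPlow 1). Lonp1 and Tomm34 were at 0.14 and 0.15 with equal classes, and with 1 library left out Tomm34 ran from -0.18 to 0.00467 and Tomm6os from -0.60 to 0.0221 (positive without MMPlow 2). In erythroid-like cells Hspd1 was at -0.0796 at resolution 2 and -0.0891 with all genes clustered, and Hspe1 at -0.0301 in the latter, while Hspd1 was at -0.0295 at resolution 2 without cluster 35. Hspd1 was at -0.0399 at 5000 UMIs in germ cell-like cells, and with 1 library left out ran from -0.0215 to 0.43 there and from -0.0975 to 0.60 in progenitor-like cells (negative without MMPhigh 2). Hspe1 and Pam16 were at 0.21 and 0.0140 at resolution 2 in macrophage-like cells, and Hspe1 at -0.0925 at 5000 UMIs in muscle progenitor-like cells, where it ran from -0.0283 to 0.38 with 1 library left out (negative without MMPhigh 1) and was at -0.16 in cluster 22 alone. Granulocyte or mast-like cells, and the added endothelial-like cells, were too few at 5000 UMIs, at resolution 2 and with all genes in the clustering, so those 3 were not run there. In progenitor-like cells the class was too small with all genes clustered, and 5000 UMIs was not run. Depth differs between the groups, and 2 libraries a group limit every test.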
